A study of Saccharomyces cerevisiae with 2 samples.

Results

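SUTs, stable unannotated transcripts, are noncoding RNAs of budding yeast named for being detectable in cells with intact RNA decay. The table of read densities lists 847 of them, taken as every entry whose identifier starts with SUT, among 9633 entries in all. One culture each of *trf4*∆ and *xrn1*∆ *trf4*∆ was sequenced, both in the BY4741 background, growing exponentially and unsynchronised in YPD, so each group is 1 library and no difference can be set against the spread of replicates. Both groups lack *TRF4*, and *xrn1*∆ *trf4*∆ also lacks *XRN1*, so the question is what differs with Xrn1p missing beside Trf4p, and strain and culture cannot be told apart. The values are read densities in normalised reads per nucleotide, and a log2 ratio is the log2 of the *xrn1*∆ *trf4*∆ density over the *trf4*∆ density without a pseudocount, for entries with a density above 0 in both libraries. No p-value is given, and intervals of single SUTs are exact (Clopper-Pearson) 95% binomial intervals that cover counting error only.

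Yeast transcribes much of its genome outside genes, often from the nucleosome-free promoters of neighbouring genes and in the opposite direction. The products are sorted by the machinery that removes them. CUTs (cryptic unstable transcripts) are handed over in the nucleus to the exosome, a 3′–5′ exonuclease complex, with the help of TRAMP, which carries Trf4p as its poly(A) polymerase. XUTs (Xrn1p-sensitive unstable transcripts) are degraded from their 5′ end by Xrn1p, the main cytoplasmic exoribonuclease, after loss of the cap. SUTs escape the nuclear pathway more often than CUTs, and many leave the nucleus and meet the same cytoplasmic decay as mRNAs.

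The deleted genes were read first. *TRF4* (*PAP2*, YOL115W) was down to 0 reads in *trf4*∆ and 1 read in *xrn1*∆ *trf4*∆, and *XRN1* (YGL173C) went from 7272 reads to 111. The 5641 ORFs whose R64 length turned the densities into whole reads add up to 7455598 reads in *trf4*∆ and 12121664 in *xrn1*∆ *trf4*∆. Of the list of decay factors without the deleted genes, all 13 cytoplasmic ones had a higher density in *xrn1*∆ *trf4*∆, with a median log2 ratio of 0.95, and 6 of them were at least 2-fold higher. Among ORFs 82.0% were higher and 40.1% at least 2-fold higher, with a median of 0.78, so these counts are near those of ORFs in general. *DHH1*, a helicase that activates decapping, had 1.32 and *DCP2*, the decapping enzyme, 1.23. Of the 12 nuclear ones, 11 were higher, with a median of 0.35, and 3 were at least 2-fold higher. These are too few genes to read their share as different from the 40.1% of ORFs. The highest of the nuclear ones were *AIR1* and *AIR2*, the zinc-knuckle subunits of TRAMP, with 1.85 and 1.87. The lowest was *MTR4*, the helicase of TRAMP, with -0.49. No gene of either list was at least 2-fold lower. If the median ORF density is set equal in the libraries, each of these ratios shifts alike, by -0.94.

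RefSeq places 11 of the 847 SUTs on the R64 genome, 9 as genes of that name and 2 through a note on another gene. The label could thus be checked against an annotation. The lengths of the SUTs are not part of the table, so they were taken as the smallest whole number of nucleotides that turns both densities into whole reads. This length equalled the annotated one for 8 of the 11, namely SUT035, SUT053, SUT125, SUT126, SUT390, SUT418, SUT468 and SUT532. SUT169, SUT527 and SUT646 had lengths of 2097, 577 and 1881 nt where RefSeq gives features of 984, 443 and 237 nt, so the extent of these 3 in the table differs from the annotation. The 7 SUTs on the plus strand have the numbers 35, 53, 125, 126, 169, 390 and 418 and lie in this order from chromosome III to XVI. The 4 on the minus strand have the numbers 468, 527, 532 and 646 and lie in this order on chromosomes IV, VI, VII and X.

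The first 120 bases are shown for 5 of the SUTs whose length was matched, as RefSeq's R64 genome has them, to show an antisense pair (SUT053 and SUT468) and the 3 SUTs whose loss is described to improve invertase secretion, which include the highest and the lowest ratio of the matched SUTs (SUT390 and SUT418). Capitals mark TCTT, the core motif of the RNA-binding protein Nab3p, and GTAA or GTAG, that of its partner Nrd1p, both searched on the strand of the transcript only. These proteins end transcription of many short noncoding RNAs and pass them to TRAMP. SUT053 starts at chrIV:506334-506453 on the plus strand and SUT468 at chrIV:507331-507450 on the minus strand. SUT390 starts at chrXVI:52977-53096 and SUT418 at chrXVI:588998-589117, both on the plus strand, and SUT125 at chrVII:650855-650974 on the plus strand.
SUT053: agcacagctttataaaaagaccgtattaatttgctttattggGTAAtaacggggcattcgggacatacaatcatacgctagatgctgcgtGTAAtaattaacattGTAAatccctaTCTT
SUT468: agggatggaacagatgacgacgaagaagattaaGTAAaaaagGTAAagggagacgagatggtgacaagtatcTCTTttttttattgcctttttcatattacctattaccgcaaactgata
SUT390: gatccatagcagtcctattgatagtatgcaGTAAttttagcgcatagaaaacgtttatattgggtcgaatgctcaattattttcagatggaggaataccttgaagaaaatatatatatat
SUT418: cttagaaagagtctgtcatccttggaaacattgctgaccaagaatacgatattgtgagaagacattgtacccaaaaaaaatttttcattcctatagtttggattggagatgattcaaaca
SUT125: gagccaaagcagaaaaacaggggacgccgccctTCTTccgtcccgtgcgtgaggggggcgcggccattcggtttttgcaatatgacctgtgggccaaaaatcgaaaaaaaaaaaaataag
SUT053 holds 3 Nrd1p motifs and SUT468 2, SUT390 has 1, and SUT418 and SUT125 have 0. The Nab3p motif occurs once in each of SUT053, SUT468 and SUT125 and in neither SUT390 nor SUT418. Of 201174 windows of 120 bases tiling both strands of the nuclear chromosomes, 56.1% hold the Nab3p motif and 55.7% an Nrd1p motif, so these letters are common anywhere.

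The annotated SUTs differed widely among themselves. Their ratios are on the deposited scale, and setting the median ORF density equal in the libraries shifts each by -0.94. SUT053 and SUT468 lie on opposite strands of chromosome IV, SUT053 at 506334 to 507774 and SUT468 wholly inside it at 506546 to 507450. RefSeq ties both to the control of coding genes by steroid biosynthesis. SUT053 had a density of 0.219 in *trf4*∆ and 0.382 in *xrn1*∆ *trf4*∆, from 315 and 880 reads. SUT468 had 0.0785 and 0.138, from 71 and 199 reads. Their log2 ratios nearly coincided at 0.81 (95% interval 0.62 to 1.0) and 0.81 (0.41 to 1.22). The study draws subtelomeric transcripts by strand, but whether the densities of the table were counted by strand is not stated, so the reads of such a pair are uncertain. *MRH1*, 373 nt downstream of SUT053 on its strand, had densities of 12.1 and 13.6 and a log2 ratio of 0.16.

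SUT390 (chromosome XVI, 52977 to 53465) and SUT418 (chromosome XVI, 588998 to 589830) are both described by RefSeq as limiting the secretion of invertase, a sucrose-splitting enzyme. SUT390 had densities of 0.0859 in *trf4*∆ and 0.256 in *xrn1*∆ *trf4*∆, from 42 and 200 reads, a log2 ratio of 1.58 (1.09 to 2.09). It lies between *APM1*, a clathrin adaptor subunit (1.34), and *THI21*, a thiamine pathway kinase (1.77), both on the other strand, and its ratio was between theirs. SUT418 had densities of 0.0432 and 0.0308 from 36 and 41 reads, a log2 ratio of -0.49 whose interval (-1.17 to 0.20) holds 0. With the median ORF density set equal in the libraries this interval lies below 0.

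SUT125 (chromosome VII, 650855 to 651159), SUT126 (chromosome VII, 660087 to 661399), SUT532 (chromosome VII, 17213 to 17709) and SUT035 (chromosome III, 205766 to 205942) are described as acting in trans through transcription factors, SUT125 also as limiting invertase secretion. SUT126 had densities of 0.0465 and 0.118 from 61 and 248 reads, with a log2 ratio of 1.35 (0.94 to 1.78), near that of *NNF2* upstream on its strand (1.21). SUT532 had 33 and 72 reads and a log2 ratio of 0.45 (-0.16 to 1.09). SUT125 rested on 5 and 8 reads, so no direction can be given for its ratio of 0.0028 (-1.79 to 1.96). SUT035 was at 0 reads in *trf4*∆ against 5 in *xrn1*∆ *trf4*∆, and a difference was not detectable at this depth. Of the 3 with a ratio, SUT126 alone had an interval above 0 on the deposited scale. With the median ORF density set equal in the libraries its interval reaches 0.

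The remaining 3 annotated SUTs are given for the entry in the table. SUT169 is antisense to *SPS100*, a gene of spore wall maturation, and is described to shift the isoforms of its mRNA during starvation. It had a density of 0.107 in *trf4*∆ and 0.495 in *xrn1*∆ *trf4*∆, from 225 and 1658 reads, a log2 ratio of 2.21 (2.0 to 2.41), the highest of the 10 annotated SUTs with a ratio. *SPS100* had 49 and 185 reads and a log2 ratio of 1.24. It overlaps the annotated SUT169 by 946 nt, and use of strand in counting is not stated, so the reads of this pair are uncertain too. SUT527, an essential RNA named *RUF20* in RefSeq that pairs with the 3′ end of *SEC4* mRNA, had densities of 0.154 and 0.267 and a log2 ratio of 0.79 (0.44 to 1.16). *SEC4*, a GTPase of secretion, had -0.18. SUT646 had densities of 0.18 and 0.655, from 338 and 1968 reads, and a log2 ratio of 1.87 (1.70 to 2.04). RefSeq notes that a protein-coding gene, YJR107C-A, had been mistaken for SUT646, so this entry may hold reads of an mRNA.

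Most SUTs were detected, at low level, in both libraries. Of the 847, 827 had a density above 0 in both, 10 only in *xrn1*∆ *trf4*∆, 1 only in *trf4*∆ and 9 in neither. Over all 9633 entries these counts were 9423, 62, 24 and 124. The median SUT density was 0.0878 in *trf4*∆ (quartiles 0.0401 and 0.176) and 0.197 in *xrn1*∆ *trf4*∆ (0.0852 and 0.403). These are 35.2% and 41.1% of the median ORF density of the same library. A level above the median ORF was reached by 126 SUTs (14.9%) in *trf4*∆ and by 167 (19.7%) in *xrn1*∆ *trf4*∆. Taking the smallest whole numbers, the reads on SUTs add up to 110348 in *trf4*∆ and 384352 in *xrn1*∆ *trf4*∆, with a median of 65 and 217 per SUT. In *trf4*∆ 731 SUTs had at least 10 reads and in *xrn1*∆ *trf4*∆ 796. Summed over all SUTs, the density was 133 in *trf4*∆ and 264 in *xrn1*∆ *trf4*∆. This was 0.628% and 2.27% of the sum over all entries, which was itself lower in *xrn1*∆ *trf4*∆. This total includes tRNAs and sn/snoRNAs.

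**Figure D1:**
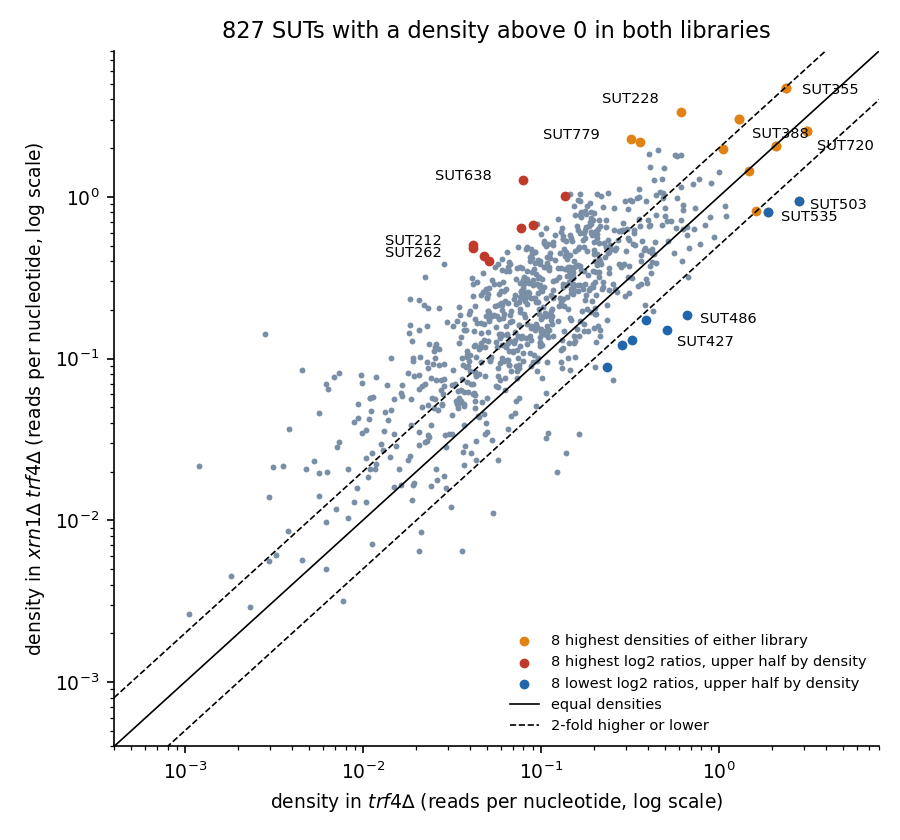
Density of each of the 827 SUTs in *trf4*∆ (x axis) and *xrn1*∆ *trf4*∆ (y axis), in reads per nucleotide on log scales. Orange points are the 8 SUTs of highest density in either library. Red and blue points are the 8 highest and 8 lowest log2 ratios among SUTs above the median of mean log2 density. Blue is drawn over orange for SUT503 and SUT535. Most points lie above the line of equal densities, 713 of 827.

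SUT720 and SUT355 were the most abundant SUTs. SUT720 had the highest density in *trf4*∆, 3.12, at the 94.2nd percentile of ORFs, and 2.54 in *xrn1*∆ *trf4*∆. SUT355 had the highest density in *xrn1*∆ *trf4*∆, 4.69, at the 96.7th percentile of ORFs, and 2.38 in *trf4*∆. The ratio of SUT720 was -0.30 (-0.38 to -0.21) from 1976 and 2567 reads, and that of SUT355 was 0.98 (0.88 to 1.09) from 953 and 3005 reads. On the deposited scale the interval of SUT720 lies below 0 and that of SUT355 above it. With the median ORF density set equal in the libraries SUT355 has a ratio of 0.037.

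Other SUTs changed places. SUT503, in place 2 in *trf4*∆ with a density of 2.84, came to place 43 in *xrn1*∆ *trf4*∆ with 0.941. SUT535 and SUT350 had densities of 1.90 and 1.61 in *trf4*∆ against 0.802 and 0.820 in *xrn1*∆ *trf4*∆. On the deposited scale SUT673 and SUT145 had nearly the same density in both, with 2.11 and 2.06 for SUT673 and 1.48 and 1.45 for SUT145. Their ratios of -0.035 (-0.16 to 0.095) and -0.024 (-0.15 to 0.10) hold 0 in narrow intervals, but with the median ORF density set equal they are -0.98 and -0.97. In the other direction, SUT228 came from place 34 with 0.612 to place 2 with 3.36, SUT779 from 0.322 to 2.27 and SUT307 from 0.361 to 2.18. SUT388 (1.31 and 3.02) and SUT325 (1.05 and 1.96) were among the most abundant in *xrn1*∆ *trf4*∆ with ratios of 1.21 and 0.90. Of the 50 SUTs of highest density in each library, 23 (46.0% of each list) were in both. This overlap was not counted for other classes, so it is not read as particular to SUTs. Spearman's rank correlation of the densities over the 827 SUTs was 0.79, against 0.90 over ORFs, which have more reads, 0.79 over XUTs and 0.73 over CUTs. These are descriptions over entries of the same pair of libraries.

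The density of SUTs was mostly higher in *xrn1*∆ *trf4*∆ than in *trf4*∆. Of the 827 SUTs, 713 (86.2%) were higher and 114 lower, where 77.4% of all entries and 82.0% of ORFs were higher, so the count of higher SUTs is near that of ORFs. At least 2-fold higher were 450 SUTs (54.4%), where 40.5% of all 9423 entries with a density in both libraries were, and at least 4-fold higher were 162 (19.6%), against 8.98% of all entries. At least 2-fold lower were 24 SUTs (2.90%), against 6.53% of all entries. The median log2 ratio was 1.12, or 2.17-fold, with quartiles of 0.45 and 1.83, beside 0.76 over all entries. The scale between the libraries bears on these counts. If the median ORF density is set equal in both libraries, log2 ratios move by -0.94. Then 462 SUTs (55.9%) are higher and 177 SUTs (21.4%) are at least 2-fold higher, against 10% of all entries, while 105 (12.7%) are at least 2-fold lower, against 21.0%.

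Over all entries, the median ratio of SUTs was closest to that of XUTs and far from that of CUTs. The median log2 ratio of SUTs exceeded that of XUTs by 0.028, of ORFs by 0.33 and of CUTs by 1.21, and a scaling between the libraries does not alter these differences. A pseudocount of 0.1 does, with 0.013 in place of 0.33 for ORFs. With at least 100 reads in each library the medians were 0.99 for SUTs, 0.82 for XUTs, 0.65 for ORFs and -0.23 for CUTs. For this limit the smallest whole numbers of reads were used in every class, ORFs included. Where these fall short of the true reads the limit is stricter, which may differ between classes. At least 2-fold higher were 54.0% of XUTs, 40.1% of ORFs and 18.9% of CUTs. At least 2-fold lower were 2.0%, 2.63% and 23.3%. The ratios of SUTs were also more spread than those of ORFs, with an interquartile range of 1.38 against 1.14. This held with at least 100 reads in each library, where it was 1.24 over 318 SUTs and 1.07 over 4147 ORFs, and 1.32 and 1.33 for XUTs and CUTs.

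**Figure D2:**
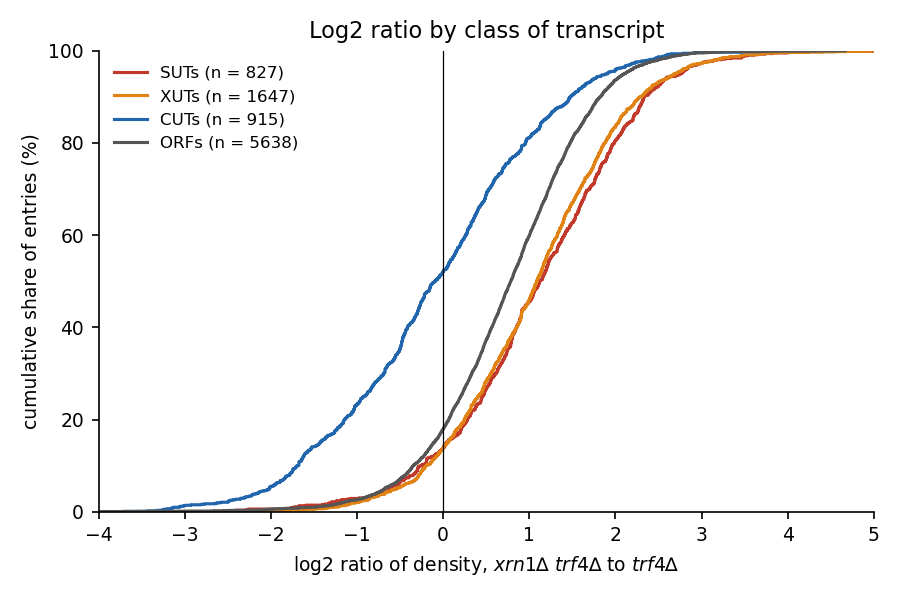
Cumulative share of entries (y axis, %) by log2 ratio of the densities, *xrn1*∆ *trf4*∆ over *trf4*∆ (x axis), for SUTs, XUTs, CUTs and ORFs. The curves of SUTs and XUTs run close to each other, with medians of 1.12 and 1.09, to the right of ORFs (0.78) and of CUTs (-0.09).

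Since SUTs are less abundant than ORFs, the classes were also set side by side within bins of mean log2 density 1 unit wide. Among the 7 bins with at least 20 SUTs and 20 ORFs, holding 798 SUTs, the SUT median was above the ORF median in 6. The difference, weighted by the number of SUTs, was 0.16, less than the 0.33 without bins. It was largest in the bins of lowest density, from -7 to -6 (0.86 against 0.50, 24 SUTs) and from -6 to -5 (1.18 against 0.72, 61 SUTs). From -5 to -4 the medians nearly coincided (0.93 and 0.93), and from -4 to -3 SUTs were the lower, with 1.11 against 1.15. From -3 to -2, which holds most SUTs (226), they were 1.33 and 1.09, from -2 to -1 they were 1.17 and 0.94, and from -1 to 0 they were 0.75 and 0.67. Against XUTs the bins went both ways, with SUTs above in 4 of 7 and a mean difference of 0.041. The mean absolute difference was 0.19 to XUTs and 0.17 to ORFs, and in 5 of 7 bins the SUT median was nearer to that of ORFs, so at like density SUTs were no closer to XUTs than to ORFs. Against CUTs the mean difference was 1.19, with SUTs above in all 6 bins compared.

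**Figure D3:**
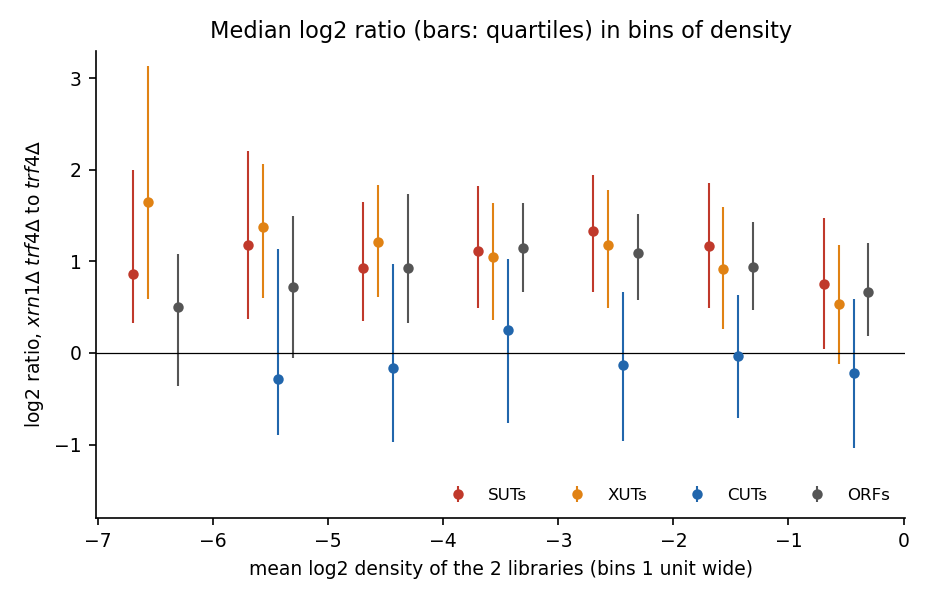
Median log2 ratio, *xrn1*∆ *trf4*∆ over *trf4*∆ (points), with quartiles (bars) for SUTs, XUTs, CUTs and ORFs in bins of mean log2 density (x axis). XUTs have the higher median than SUTs in the 3 bins of lowest density and SUTs in the other 4, and CUTs lie lowest wherever they are shown.

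Extreme ratios were taken among the 413 SUTs above the SUT median of mean log2 density with more than 3 reads in both libraries. A high density in 1 library can carry a SUT into this set. The 8 highest ratios were those of SUT638, SUT212, SUT262, SUT238, SUT397, SUT723, SUT607 and SUT157. Of these, SUT607 and SUT157 alone exceeded the SUT median density of *trf4*∆ (0.0878), so the others entered through *xrn1*∆ *trf4*∆. SUT638 had a density of 0.0791 in *trf4*∆ and 1.27 in *xrn1*∆ *trf4*∆, from 14 and 359 reads, a log2 ratio of 4.01 (3.24 to 4.89). It moved from place 455 to place 21 among SUTs. SUT607 (0.136 and 1.02) and SUT157 (0.0901 and 0.668) had most reads in *trf4*∆ of these 8, 180 and 171, and log2 ratios of 2.90 (2.68 to 3.13) and 2.89 (2.66 to 3.12). SUT238 and SUT397 had ratios of 3.18 and 3.06, from 131 and 83 reads in *trf4*∆. SUT212, SUT262 and SUT723 rested on 8, 16 and 7 reads in *trf4*∆, with ratios of 3.61 (2.6 to 4.85), 3.53 (2.81 to 4.36) and 2.98 (1.87 to 4.33). All 8 intervals lie above the SUT median, but the SUTs were picked for high ratios and the intervals do not allow for this choice.

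The 8 lowest ratios in the same set were those of SUT486, SUT427, SUT503, SUT403, SUT594, SUT535, SUT380 and SUT153. Of these, SUT503 and SUT535 alone exceeded the SUT median density of *xrn1*∆ *trf4*∆ (0.197), so the others entered through *trf4*∆. SUT486 had densities of 0.667 in *trf4*∆ and 0.186 in *xrn1*∆ *trf4*∆, from 262 and 117 reads, a log2 ratio of -1.84 (-2.17 to -1.52). SUT503 and SUT535, among the most abundant SUTs of *trf4*∆, had -1.59 (-1.79 to -1.39) and -1.24 (-1.49 to -1.0). SUT153, the one with most reads, had 833 and 585 and a ratio of -1.19 (-1.34 to -1.03). The other 4 lay between -1.76 and -1.24. All 8 intervals lie below 0, again for SUTs picked by their ratios. At the middle of the distribution, SUT474 (0.288 and 0.626), SUT182 (0.283 and 0.614) and SUT683 (0.484 and 1.05) each had a ratio of 1.12.

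**Figure D4:**
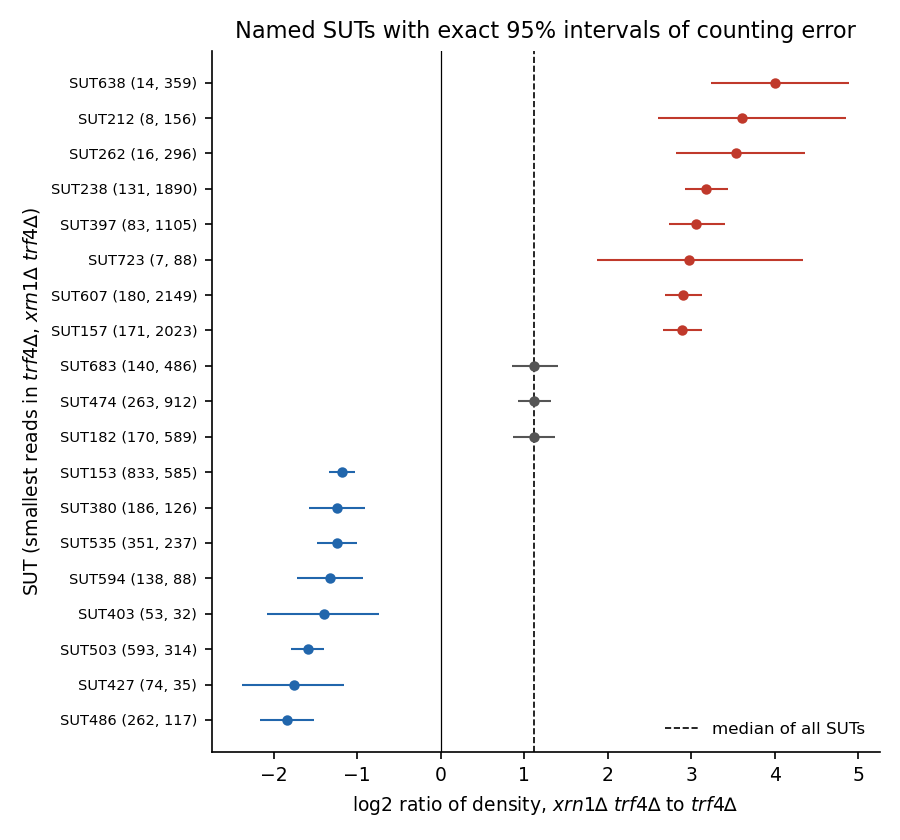
Log2 ratio, *xrn1*∆ *trf4*∆ over *trf4*∆ (x axis), of the 8 lowest (blue), the 3 nearest to the median (grey) and the 8 highest SUTs (red), with exact 95% intervals of counting error as bars and the smallest whole reads of both libraries beside each name. The red intervals lie right of the dashed SUT median (1.12) and the blue ones left of 0. Both groups were picked by their ratios, which the intervals do not allow for.

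Outside that set the extremes were named after their values were seen, and most rest on few reads in 1 or both libraries. SUT523 was seen with 1 read in *trf4*∆ and 80 in *xrn1*∆ *trf4*∆, SUT652 had 8 and 240, and SUT727 had 2 and 57. The ratio of SUT652 was 4.23 (3.23 to 5.46). The 5 SUTs at least 4-fold lower were SUT117, SUT436, SUT027, SUT659 and SUT410. SUT659, with a length of 3577 nt, had 192 and 63 reads and a ratio of -2.28 (-2.72 to -1.87), and SUT117 had 66 and 17 reads and -2.63 (-3.49 to -1.85). SUT436, SUT027 and SUT410 had 7, 20 and 12 reads in *trf4*∆ and 2, 6 and 4 in *xrn1*∆ *trf4*∆. Of the SUTs with 0 reads in *trf4*∆, SUT080 had most in *xrn1*∆ *trf4*∆, 17, a density 3.55 times that of a floor of 3 reads in *trf4*∆. SUT407 had 7 reads in *xrn1*∆ *trf4*∆, 1.46 times the same floor. Both values leave out the counting error of the reads in *xrn1*∆ *trf4*∆, so they are not lower limits. The only SUT at 0 in *xrn1*∆ *trf4*∆, SUT561, had 2 reads in *trf4*∆.

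The median density in *trf4*∆ was lower in groups of SUTs with a larger ratio. The 23 SUTs at least 8-fold higher had median densities of 0.0184 and 0.162 (*trf4*∆, *xrn1*∆ *trf4*∆), from a median of 9 and 156 reads, and 6 of them had 3 reads or fewer in *trf4*∆. The 139 SUTs between 4-fold and 8-fold higher had medians of 0.0614 and 0.35, and those between 2-fold and 4-fold 0.0858 and 0.256. The 353 SUTs within 2-fold had medians of 0.11 and 0.147, and the 24 at least 2-fold lower 0.183 and 0.0544. The *trf4*∆ density is the denominator of the ratio, which in part fixes this order, and single SUTs depart from it, such as SUT228 with 5.49-fold and a density of 0.612 in *trf4*∆.

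The ratio also varied with length, which can be recovered from the densities. The smallest length of the 838 SUTs with a read had a median of 705 nt (quartiles 385 and 1211), against 580 nt for XUTs and 369 nt for CUTs recovered in the same way. How often the smallest length falls short was checked over ORFs only. It may differ between classes, so these medians do not settle which class is longer. The longest SUT was SUT048, with 4913 nt and 19 and 286 reads, followed by SUT514 with 4281 nt and 394 and 1055 reads. The shortest values, 31 nt for SUT378 and 33 nt for SUT248, may be fractions of the true length, since the method gives the smallest one possible. For ORFs it gave the R64 length in 76.2% of 5673 and a whole fraction of it in nearly all others (99.4% in all).

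In 4 groups of SUTs by length, the median log2 ratio was 0.91 for the shortest (31 to 385 nt), then 1.02, 1.22 and 1.42 for the longest (1233 to 4913 nt). The share of SUTs at least 2-fold higher was 48.3%, 50.2%, 57.3% and 61.8%. The median densities over the 4 groups were in *trf4*∆ 0.0798, 0.0879, 0.0989 and 0.0881, and in *xrn1*∆ *trf4*∆ 0.174, 0.188, 0.236 and 0.238. The reads behind a SUT grew with length, from a median of 20 to 164 in *trf4*∆. With at least 10 reads in each library the median ratios were 0.80, 0.94, 1.24 and 1.38. The densities then ran from the shortest to the longest group as 0.130, 0.106, 0.0995 and 0.0886 in *trf4*∆ and as 0.260, 0.209, 0.260 and 0.241 in *xrn1*∆ *trf4*∆, so which library's density goes with length depends on this filter. XUTs had 1.0, 0.95, 1.07 and 1.40 over their own 4 groups by smallest length, which may fall short of the true length. ORFs by R64 length had the opposite order, with 0.95, 0.83, 0.80 and 0.64, and their density was lower in the longest group (median 0.217 in *trf4*∆ against 0.286 in the shortest). Spearman's rank correlation of length and log2 ratio was 0.14 over 827 SUTs and -0.15 over 5633 ORFs, a weak relation in both, over entries that share their libraries.

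**Figure D5:**
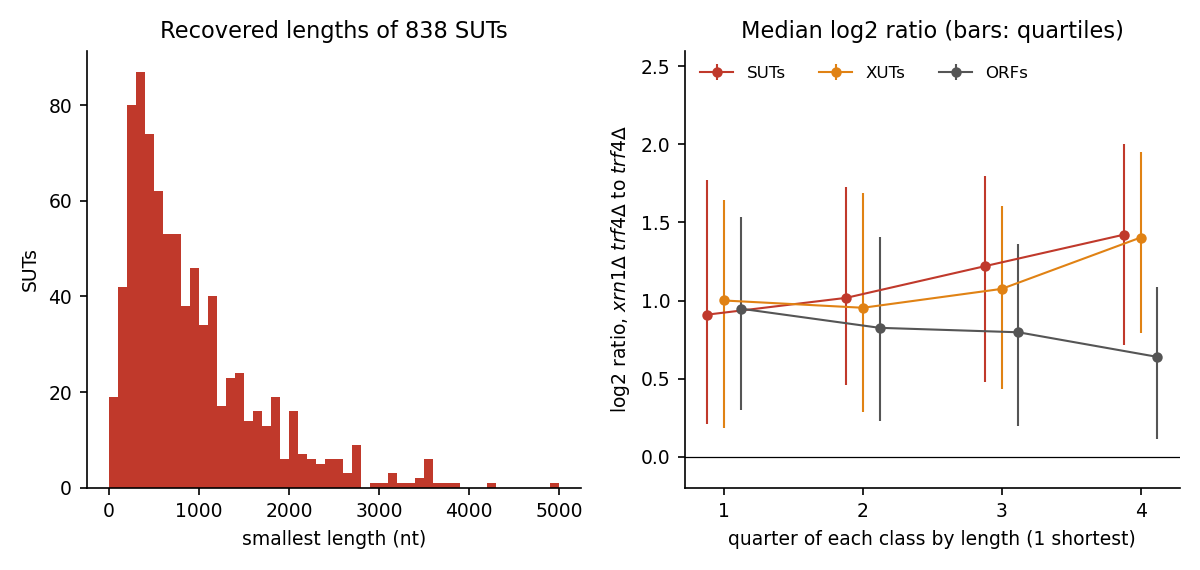
Left, number of SUTs (y axis) by recovered length in bins of 100 nt (x axis). Right, median log2 ratio, *xrn1*∆ *trf4*∆ over *trf4*∆ (points), with quartiles (bars) in 4 groups of SUTs, XUTs and ORFs by length, from the shortest to the longest. Length is the smallest length for SUTs and XUTs and the R64 length for ORFs. The SUT medians run from 0.91 to 1.42 and those of ORFs from 0.95 to 0.64, while the quartiles overlap throughout.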

How the data were processed

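RNA-seq densities of 1 *trf4*∆ and 1 *xrn1*∆ *trf4*∆ culture were analysed. The authors deposited a coverage signal, in reads per nucleotide normalised on the reads mapped on all ORFs, made from rRNA-depleted total RNA sequenced as SOLiD reads and aligned to the S288c genome with Bowtie 0.12.7, keeping reads with a unique position. Use of strand in counting these densities is not given in the sources used here. Other columns left out numbered 0.

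Density times R64 length came to whole reads in *trf4*∆ and to multiples of 0.626 in *xrn1*∆ *trf4*∆. For SUTs, the smallest length and reads that give both densities (tolerance 1e-06) were used, with lengths up to 20000 nt tried. Classes were read from the identifiers, XUTs by elimination. RefSeq R64 gave positions, neighbours within 600 nt and sequences.

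Named SUTs were the 8 of highest density in each library, 3 at 0 in 1 library, and the 2 shortest and 2 longest. Added were the 8 highest, 8 lowest and 3 middle ratios among SUTs above the median of mean log2 density with over 3 reads in both. Members and lists were chosen with earlier results of these data known. Alternatives were pseudocounts, filters on density and reads, other scalings and other summaries. Functions were tested on simulated data. Software was matplotlib 3.10.9, SciPy 1.17.1, Python 3.11.15, pandas 2.3.3 and NumPy 2.4.6.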

Additional observations from a re-analysis of the deposited data

How the results depend on the processing

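With 1 library per strain, a value was taken as changed when it left the 95% interval (order statistics over SUTs for the median) and a count when it differed by over 1.5 times. These limits serve as labels only and do not cover the spread between cultures. The median log2 ratio of SUTs, 1.12, stayed positive under every alternative. With the median ORF density set equal it was 0.17, with 177 SUTs at least 2-fold higher and 105 at least 2-fold lower, and with a trimmed mean of ORF ratios set to 0 it was 0.33, with 224 and 85. Both set a typical ORF near 0 by construction. A pseudocount of 0.01 gave a median of 0.98. A pseudocount of 0.1, above the median SUT density in *trf4*∆, gave 0.52, with 212 SUTs at least 2-fold higher, 5 at least 2-fold lower and a difference to ORFs of 0.013 in place of 0.33. The ratio of summed densities gave 0.99. Filters on density or reads, equal sums of ORF densities, means, wider bins and leaving out SUTs with shared densities kept the values within these limits. Of 29 named SUTs, all stayed within their intervals with the pseudocount of 0.01. Setting the median ORF density equal moves every SUT alike, by -0.94. Of the 29, 26 then left their intervals with the sign kept, and 2 stayed within them. The sign changed for 1, SUT325, from 0.90 to -0.048. No paired analysis was possible because each strain has 1 library. SUTs with few reads limit single ratios: 44 SUTs had 1 to 3 reads in *trf4*∆.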

Other observations

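The recovered lengths of SUTs fell on a grid. Of 838 SUTs with a read, 790 (94.3%) had a smallest length 1 nt above a multiple of 8 nt, as had 94.0% of CUTs, against 13.4% of XUTs and 14.4% of ORFs. A further 42 SUTs had an odd length off the grid, and 6 an even one. As an alternative chosen after seeing the data, each odd length was replaced by its smallest multiple on the grid. The median log2 ratio was then 0.91, 0.91, 1.24 and 1.42 from the shortest to the longest of the 4 length groups. The ends were as before, but the shortest group and the next had the same median. With these lengths the SUTs held 114157 and 406219 reads.

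SUT553 and SUT740 share both densities (0.0110 in *trf4*∆ and 0.0573 in *xrn1*∆ *trf4*∆), which come to 3 and 25 reads over 273 nt for each. SUT401 shares its densities (0.0207 and 0.0648) with CUT127. Without these SUTs the median log2 ratio was 1.12.

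SUTs with consecutive numbers had weakly alike log2 ratios, with a Spearman rank correlation of 0.096 over 806 pairs, against 0.013 for numbers 2 apart. The 406 SUTs numbered up to SUT418, the last annotated on the plus strand, had a median log2 ratio of 1.04 and 51.0% at least 2-fold higher. The 373 from SUT468, the first annotated on the minus strand, had 1.22 and 58.4%. The strand of the SUTs between the annotated ones was not checked.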
